A study of Mus musculus with 6 samples.

Results

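The genes described here encode proteins that repair DNA or signal DNA damage. They were chosen by name from a list of 48 genes, and each was read from 1 probe set, the one of highest mean level among those annotated to that gene alone. Of the 48 genes 45 were found among the 19938 genes with such a probe set. Xrcc2, Rbbp8 and Trp53 are not analysed here. Expression was measured on 6 arrays, 1 for each sorted sample from 3 mice. The injured muscle was the tibialis anterior, treated with cardiotoxin, a venom component that destroys muscle fibres, and cells were taken on day 2. CD45+ cells were collected on magnetic beads and sorted into a Ly6C- F4/80high and a Ly6C+ F4/80low subset, so that both subsets came from each mouse. All mice were of the strain B6.129P2-Lyzstm1(cre)Ifo/J, which carries Cre recombinase at the lysozyme locus, a gene of myeloid cells. Both subsets share this allele, the labels name no floxed partner allele, no uninjured muscle was part of the comparison, and the age of the mice is not given. Values are the deposited log2 expression levels, and every difference is Ly6C- F4/80high minus Ly6C+ F4/80low with its standard error (SE) and 3 arrays per subset. A gene is called when limma's adjusted p, taken over all 19938 genes, is under 0.05.

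Cells repair DNA by several routes. Double-strand breaks are mended by homologous recombination, which copies the sister chromatid and therefore works mainly in S and G2 phase, or by end joining, which needs no template and also serves resting cells. The Fanconi pathway removes crosslinks between the DNA strands, while mismatch, base excision and nucleotide excision repair replace damaged or wrong bases on a single strand. The kinases ATM and ATR sense breaks and stalled forks and act through CHK2, CHK1 and p53 to halt the cell cycle. In macrophages reactive oxygen made by the cell itself is a known source of DNA damage, and precursors that still divide also face replication stress.

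The sorted cells carried the genes of their gates. Adgre1, which encodes F4/80, averaged 11.6 ± 0.03 in Ly6C- F4/80high cells and 10.9 ± 0.03 in Ly6C+ F4/80low cells (SD, n = 3 each). Ly6c1 and Ly6c2 share their probe sets, of which the brighter averaged 8.02 ± 0.25 in Ly6C- F4/80high cells and 11.4 ± 0.12 in Ly6C+ F4/80low cells. All 9 macrophage markers on a fixed list were above background on every array, and 3 of them, led by Mertk, were higher in Ly6C- F4/80high cells while Ptprc, Cd14, Fcgr1 and Itgam were lower. The background was set at 5.44, the 95th percentile of 1196 olfactory and vomeronasal receptor genes, and a level under it is not a measured level. Markers of endothelial cells were lower in Ly6C- F4/80high cells in 4 of 5 cases, those of fibroblasts in 4 of 5, those of dendritic cells in 3 of 6 and those of mast cells and eosinophils in 3 of 8. Of the other lists, neutrophil genes were lower in 2 of 9 cases and muscle genes in 2 of 7. T cell genes were lower in 1 of 6 cases and NK cell genes in 1 of 5. In the B cell list 1 of 5 genes was higher, and neither red cell gene was called. Over all genes 14.3% were called lower and 19.5% higher. Of the genes counted as lower, Ly6g, Cxcr2, Gzmb, Cma1, Kit and Tek were under the background on all arrays. The mean level of the endothelial list lay between 5.63 and 5.71 on the Ly6C- F4/80high arrays and between 6.24 and 6.35 on the Ly6C+ F4/80low arrays. That of the fibroblast list was 5.14 to 5.19 in Ly6C- F4/80high and 5.48 to 5.93 in Ly6C+ F4/80low cells, and that of the dendritic list 5.04 to 5.13 in Ly6C- F4/80high and 5.57 to 5.68 in Ly6C+ F4/80low cells. Their part in the differences below was not tested.

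Repair and checkpoint genes were called higher in Ly6C- F4/80high cells far more often than lower. Of the 45 genes 19 were called higher, 1 was called lower and 25 were not called, where 33.8% of all genes were called in either direction. The higher share was 42.2%, against 19.5% of all genes, and the lower share was 2.22%, against 14.3% of all genes. The median difference over the 45 genes was 0.24 and that over all genes was -0.06. In 38 of the 45 genes, or 84.4%, the difference was positive, against 40.9% of all genes. Weakly expressed genes are called less often, so the 50% of genes with the higher levels were also fitted alone, with p adjusted over them. In that fit 12 of 22 repair genes were called higher, 54.5% against 38.0% of the genes there. Ogg1 and Ercc1 were among the 12 but were not called in the fit of all genes. For 27 of the 45 genes the 3 arrays of each subset kept apart, 60.0% against 48.1% of all genes, and in 26 of these the Ly6C- F4/80high arrays lay above.

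The fitted differences were small. By them only Chek2 passed 2-fold, a size that 1.91% of all genes passed on the higher side and 1.02% on the lower. Genes under the background in Ly6C+ F4/80low cells may differ by more than the fit shows. The 19 called higher differences ran from 0.24 for Xrcc1 to 1.30 for Chek2. For 8 of the 19 all 3 Ly6C+ F4/80low arrays lay under the background, and 6 of these 8 have only a lower bound on the fold. For the other two no fold can be given, since the Ly6C- F4/80high mean of Brca1 was also under the background and Fancd2 was under it on every array. Another 7 of the 45 genes, none of them called, were also under it on all 6 arrays. The remaining 11 of the 19 were above the background in both subsets, Atm on 2 of 3 Ly6C+ F4/80low arrays. In bulk samples a larger share of expressing cells and more RNA per cell cannot be told apart. The mice gave like results, with a positive difference for 38 genes in mouse 1, 38 in mouse 2 and 36 in mouse 3. For 32 genes the difference was positive in all 3 mice and for 2 it was negative in all 3. The shares of all genes with such signs in single mice or in all 3 were not counted. The median over the 45 genes was 5.98, 5.94 and 5.95 on the Ly6C- F4/80high arrays of mice 1, 2 and 3, against 5.86, 5.71 and 5.65 on the Ly6C+ F4/80low arrays.

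**Figure D1:**
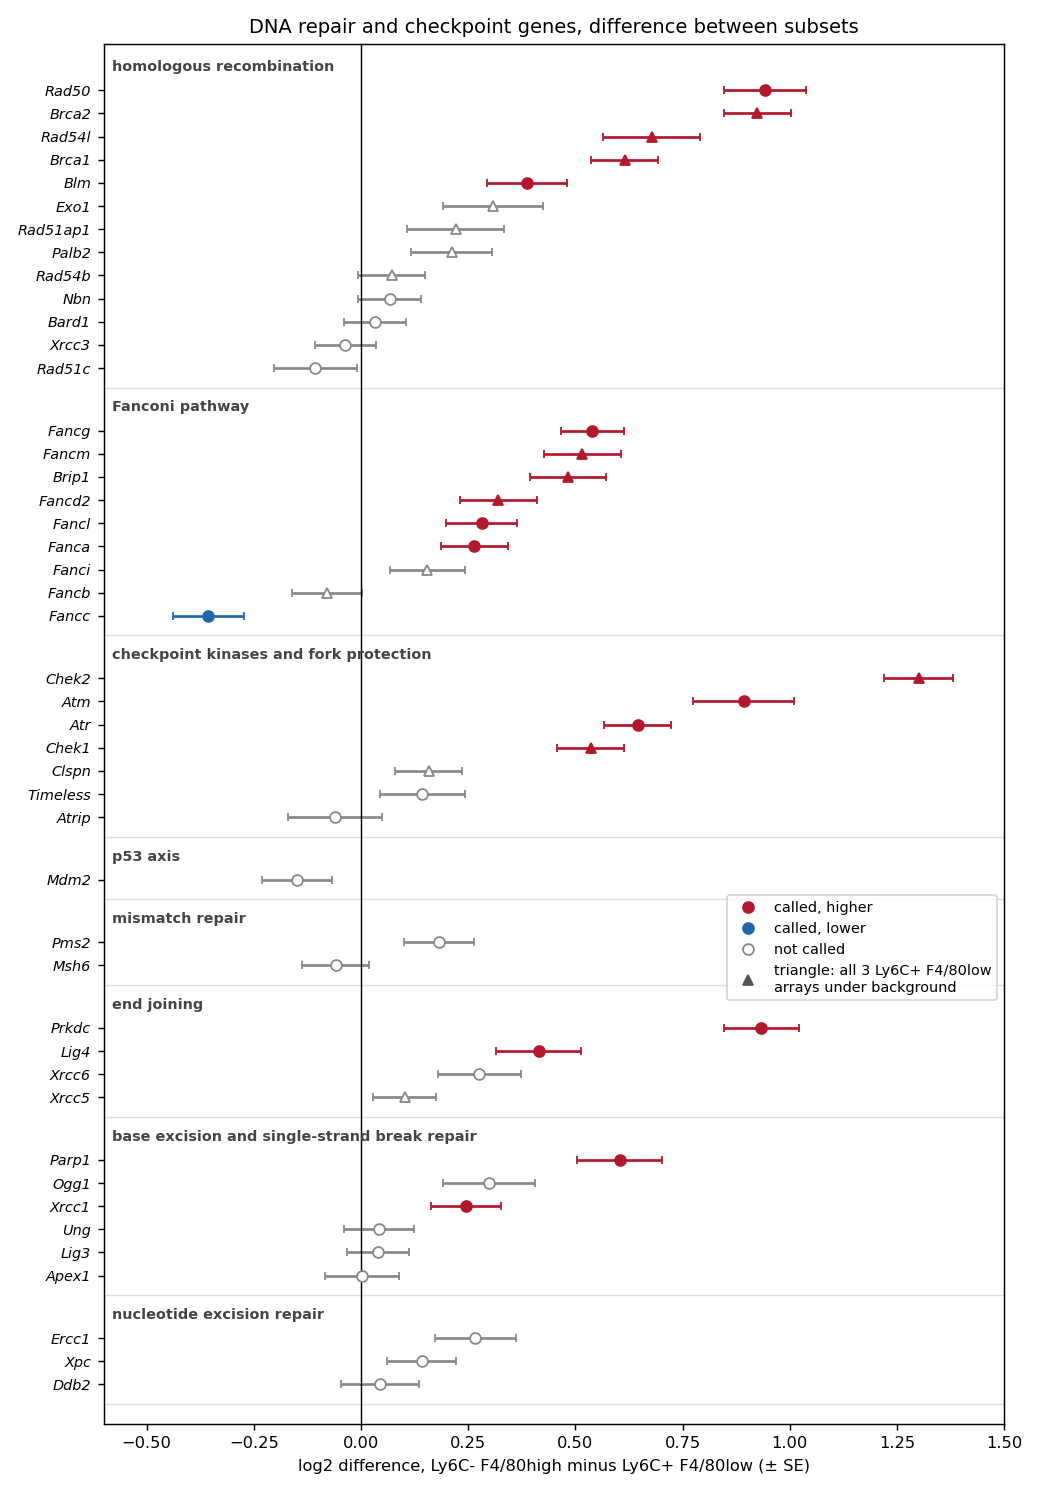
Log2 difference (x axis, ± SE from limma) of each of the 45 genes, grouped by repair route, 3 arrays per subset. Filled red symbols mark the 19 genes called higher in Ly6C- F4/80high cells, the filled blue symbol Fancc, open symbols genes not called, and triangles genes whose 3 Ly6C+ F4/80low arrays all lie under the background of 5.44. Chek2 lies farthest to the right at 1.30.

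The stretches of promoter shown here carry a motif of the E2F factors, which drive genes of S phase, and one without it is shown for the single gene of the 45 called lower. RefSeq promoter windows of assembly GRCm38.p6 were found for 37 of the 45 genes. A single window was used for each gene, that of the start farthest upstream. The 250 bases before the start were searched on both strands for TTTCCCGC, TTTCGCGC, TTTGCCGC and TTTGGCGC. A motif was found in 5 of the 37 genes, 13.5%, against 1.92% of 27025 genes in the table and 2.57% of the tested genes with a window. Of these 5, Chek2, Brca2 and Fancg were called higher, while Xrcc6 and Bard1 were not called. Most called higher genes with a window, 13 of 16, held none. The pentamer CCAAT was found in 56.8% of the 37 windows, against 34.5% of the table and 35.6% of the tested genes with a window. The hexamer TTTGAA of the cell cycle homology region was found in 2.7%, against 16.3% of the table and 13.8% of those tested genes. No motif overlapped another in these windows. A match is a run of letters and no proof of binding. Each stretch below holds 100 bases 5′ to 3′ on the strand of its gene, with the E2F motif in capitals. They lie at chr5:110839785-110839884 on the plus strand for Chek2, chr5:150522407-150522506 on the plus strand for Brca2 and chr4:43010302-43010401 on the minus strand for Fancg. Those of Xrcc6, Bard1 and Fancc lie at chr15:82016269-82016368 on the plus strand, chr1:71103123-71103222 on the minus strand and chr13:63431746-63431845 on the minus strand.
Chek2: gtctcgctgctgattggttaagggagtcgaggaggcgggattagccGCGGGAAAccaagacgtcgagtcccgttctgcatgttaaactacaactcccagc
Brca2: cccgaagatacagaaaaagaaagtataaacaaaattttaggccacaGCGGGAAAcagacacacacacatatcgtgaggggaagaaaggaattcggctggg
Fancg: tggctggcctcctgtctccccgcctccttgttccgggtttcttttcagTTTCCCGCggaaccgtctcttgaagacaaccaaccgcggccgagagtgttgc
Xrcc6: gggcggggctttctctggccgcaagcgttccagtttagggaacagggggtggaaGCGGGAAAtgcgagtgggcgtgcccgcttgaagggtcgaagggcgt
Bard1: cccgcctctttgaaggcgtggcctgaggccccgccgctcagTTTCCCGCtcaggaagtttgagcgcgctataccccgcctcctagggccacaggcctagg
Fancc: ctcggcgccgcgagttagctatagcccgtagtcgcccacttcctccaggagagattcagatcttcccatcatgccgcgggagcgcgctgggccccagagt

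The checkpoint kinases were all higher. The genes of all 4 kinases, ATM, ATR, CHK1 and CHK2, were called higher in Ly6C- F4/80high cells, while the other 3 genes of this group, Atrip, Clspn and Timeless, were not called. Chek2, the effector kinase that ATM activates at double-strand breaks, stood at 6.53, 6.35 and 6.49 in Ly6C- F4/80high cells of mice 1, 2 and 3, against 5.12, 5.12 and 5.22 in the Ly6C+ F4/80low cells. The lowest Ly6C- F4/80high array was well above the highest Ly6C+ F4/80low array. Since every Ly6C+ F4/80low array was under the background, Chek2 was at least 2.02-fold higher (limma adjusted p = 2.59e-06). Atm, the kinase that senses those breaks, read 6.65, 6.44 and 6.51 in Ly6C- F4/80high cells and 5.88, 5.64 and 5.41 in Ly6C+ F4/80low cells. Its difference was 0.89 (SE 0.12, limma adjusted p = 0.000289), and 1 of the Ly6C+ F4/80low arrays was under the background.

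Atr, which answers to single-stranded DNA at stalled forks, had the tightest agreement between mice of the kinases. It read 6.75, 6.68 and 6.61 in Ly6C- F4/80high cells, against 6.10, 6.05 and 5.96 in Ly6C+ F4/80low cells. The difference was 0.64 (SE 0.08, limma adjusted p = 0.000171), and within single mice it ran from 0.63 to 0.66. Chek1, the kinase activated by ATR, had levels of 5.78, 5.79 and 5.93 in Ly6C- F4/80high cells and 5.23, 5.34 and 5.33 in Ly6C+ F4/80low cells. All of the Ly6C+ F4/80low levels were under the background, so Chek1 was at least 1.31-fold higher (limma adjusted p = 0.000572). Atrip, the subunit that brings ATR to the DNA, showed no such split, with 6.64, 6.43 and 6.40 in Ly6C- F4/80high cells and 6.76, 6.51 and 6.38 in Ly6C+ F4/80low cells. Its difference was -0.06 (SE 0.11, limma adjusted p = 0.692). Clspn encodes claspin, the mediator between ATR and CHK1, and Timeless a fork protection protein. They differed by 0.16 (SE 0.08) and 0.14 (SE 0.10), neither called (limma adjusted p = 0.142 and 0.285). Every Ly6C+ F4/80low array was under the background for Clspn, so its 0.16 is not a measured difference.

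**Figure D2:**
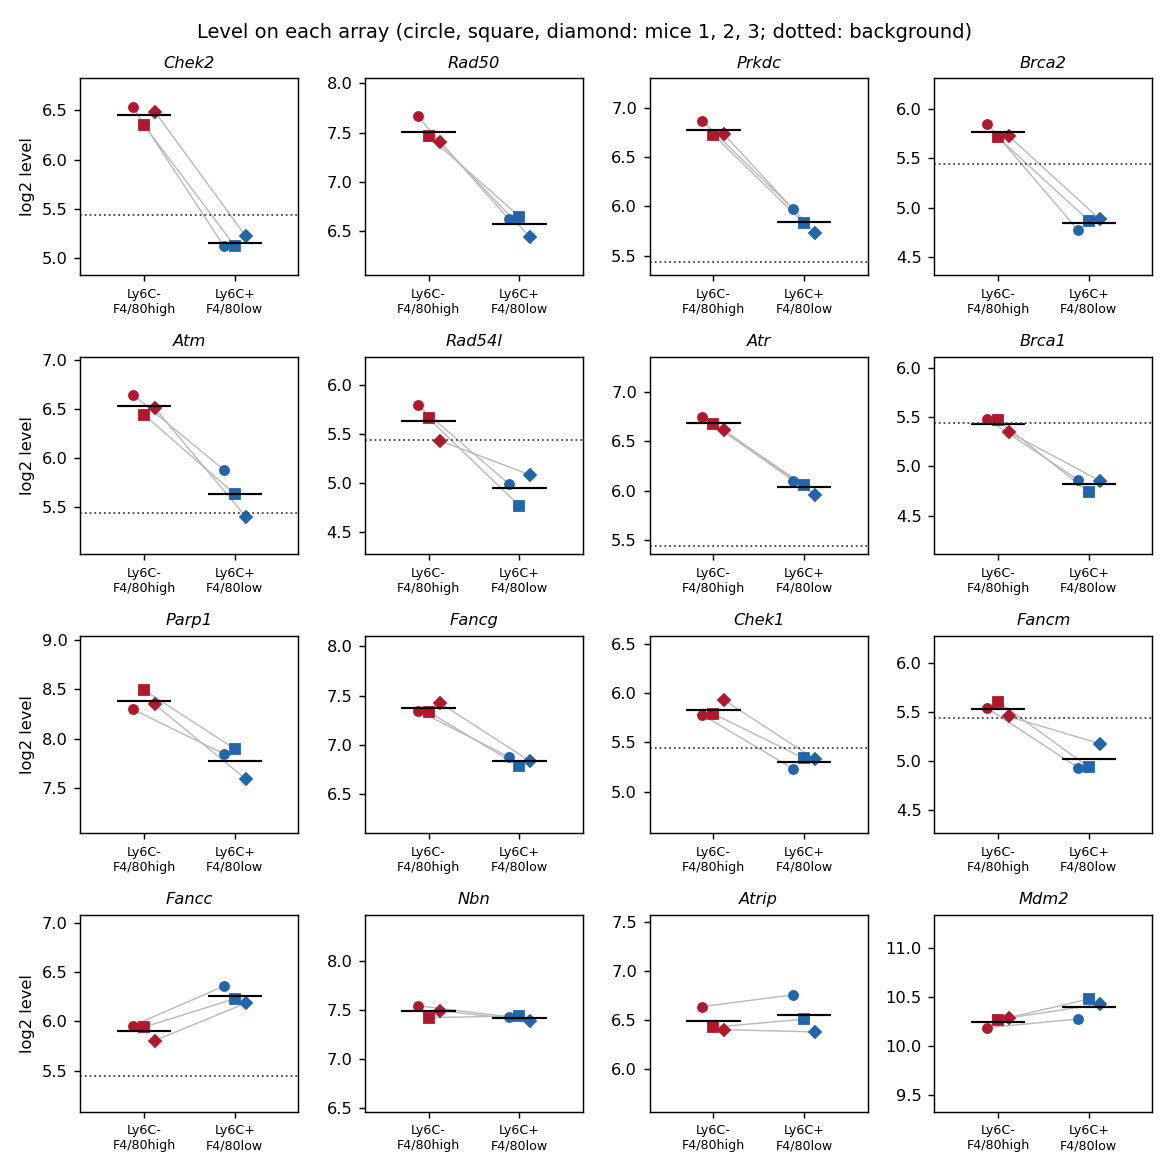
Log2 level (y axis, 2 log2 units in every panel) of 16 of the genes on each array, Ly6C- F4/80high in red and Ly6C+ F4/80low in blue, with grey lines joining the arrays of a mouse, bars for the means and a dotted line at the background of 5.44. The subsets are apart in the first 12 panels and, the other way round, in Fancc, and they overlap in Nbn, Atrip and Mdm2.

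Homologous recombination genes were split between a few clear increases and many small differences. Of 13 genes 5 were called higher and 0 lower, and the median difference was 0.22. The clearest were Rad50 and Brca2. Rad50, the ATPase of the complex that first binds broken ends, read 7.66, 7.46 and 7.40 in Ly6C- F4/80high cells, against 6.62, 6.65 and 6.44 in Ly6C+ F4/80low cells. All of these levels were above the background, and the difference was 0.94 (SE 0.10, limma adjusted p = 5.53e-05). Brca2, a mediator of strand exchange, had 5.85, 5.71 and 5.73 in Ly6C- F4/80high cells and 4.77, 4.87 and 4.88 in Ly6C+ F4/80low cells. It was at least 1.25-fold higher (limma adjusted p = 1.74e-05), since the Ly6C+ F4/80low arrays were all under the background.

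Rad54l, a motor protein that acts during strand invasion, was at least 1.14-fold higher (limma adjusted p = 0.00121). It read 5.79, 5.66 and 5.43 in Ly6C- F4/80high cells, of which that of mouse 3 was just under the background, and 4.996, 4.770 and 5.083 in Ly6C+ F4/80low cells. Brca1, which promotes resection and the recruitment of BRCA2, read 5.48, 5.47 and 5.35 in Ly6C- F4/80high cells and 4.86, 4.74 and 4.85 in Ly6C+ F4/80low cells. The subsets did not overlap and the gene was called (limma adjusted p = 0.00024), but with a Ly6C- F4/80high mean of 5.43 no fold bound can be given. Blm, the helicase that dissolves joined recombination products, averaged 5.92 ± 0.15 in Ly6C- F4/80high cells and 5.53 ± 0.09 in Ly6C+ F4/80low cells (SD, n = 3 each). Its difference was 0.39 (SE 0.09, limma adjusted p = 0.0102), and the call was lost without mouse 1 (difference 0.27, limma adjusted p = 0.0959).

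The other 8 recombination genes were not called, with differences from -0.11 for Rad51c to 0.31 for Exo1, both from levels mostly or wholly under the background. Exo1, the exonuclease of long-range resection, was under the background on all arrays, at 4.97, 4.73 and 5.20 in Ly6C- F4/80high cells and 4.70, 4.55 and 4.72 in Ly6C+ F4/80low cells (limma adjusted p = 0.067). It was called with the mouse as a block (limma adjusted p = 0.0356) and without the Ly6C- F4/80high sample of mouse 2 (0.0129). Palb2, the bridge between BRCA1 and BRCA2, differed by 0.21 (SE 0.09, limma adjusted p = 0.11), under the background on all arrays. Leaving out the first mouse's Ly6C+ F4/80low array gave a call (limma adjusted p = 0.0496). Rad51ap1 and Rad54b, accessory genes of recombination, were under the background on all arrays as well and differed by 0.22 (SE 0.11) and 0.07 (SE 0.08). Rad51c and Xrcc3, whose proteins form a complex in recombination, differed by -0.11 (SE 0.10) and -0.04 (SE 0.07). Rad51c was above the background only on the Ly6C+ F4/80low array of mouse 2, so its -0.11 is not a measured difference. Bard1, the partner of BRCA1, differed by 0.03 (SE 0.07), and its other 2 probe sets by 0.07 and 0.03. Nbn, the adaptor that ties RAD50 to ATM, differed by 0.07 (SE 0.07), and by -0.24 on its other probe set, so that its sign depends on the probe set and neither was called.

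In the Fanconi pathway 6 of 9 genes were called higher and 1 lower, and the median difference was 0.28. Fancg, a subunit of the core complex that ubiquitinates FANCD2, had the largest difference measured above background in both subsets. It read 7.35, 7.33 and 7.43 in Ly6C- F4/80high cells, against 6.88, 6.78 and 6.83 in Ly6C+ F4/80low cells, a difference of 0.54 (SE 0.07, limma adjusted p = 0.000366). The spread within each subset was far less than the gap between them. Fancm, the translocase that anchors the core complex at stalled forks, was at least 1.07-fold higher (limma adjusted p = 0.00164). Its levels were 5.54, 5.61 and 5.46 in Ly6C- F4/80high cells and 4.94, 4.94 and 5.18 in Ly6C+ F4/80low cells. Brip1, a helicase that binds BRCA1, was at least 1.09-fold higher (limma adjusted p = 0.00222). It read 5.72, 5.44 and 5.55 in Ly6C- F4/80high cells and 5.15, 5.06 and 5.04 in Ly6C+ F4/80low cells. Its Ly6C- F4/80high level in mouse 2 was just under the background. For both genes every Ly6C+ F4/80low array was under the background.

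Weaker calls in this pathway rested on the full set of arrays. Fanca, another core subunit, averaged 6.68 ± 0.07 in Ly6C- F4/80high cells and 6.42 ± 0.07 in Ly6C+ F4/80low cells (SD, n = 3 each), a difference of 0.26 (SE 0.08, limma adjusted p = 0.0254). Its call was lost with the mouse as a block (limma adjusted p = 0.0548), and without the array of mouse 1 or of mouse 2 in either subset (limma adjusted p from 0.0562 to 0.0815). Fancl, the ubiquitin ligase of the core complex, differed by 0.28 (SE 0.08, limma adjusted p = 0.0241). Its call was lost without the Ly6C- F4/80high sample of mouse 1 or 3 or the Ly6C+ F4/80low array of mouse 2 or 3 (limma adjusted p from 0.0571 to 0.0848). Fancd2, the protein that the core complex modifies, had 4.60, 4.35 and 4.57 in Ly6C- F4/80high cells and 4.19, 4.12 and 4.25 in Ly6C+ F4/80low cells (limma adjusted p = 0.0202). These are all under the background, and its call was lost without the Ly6C- F4/80high sample of mouse 1 or 3 or the Ly6C+ F4/80low array of mouse 2 (limma adjusted p from 0.0647 to 0.0778).

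Fancc, also of the core complex, was the single gene of the 45 called lower. It read 5.96, 5.94 and 5.80 in Ly6C- F4/80high cells, against 6.36, 6.23 and 6.18 in Ly6C+ F4/80low cells. The subsets did not overlap, all levels were above the background, and the difference was -0.36 (SE 0.08, limma adjusted p = 0.00799). Without mouse 3 the difference was -0.35 and the call was lost (limma adjusted p = 0.0516). Fanci, the partner of FANCD2, and Fancb, a core subunit, were under the background on all arrays and differed by 0.15 (SE 0.09) and -0.08 (SE 0.08), neither called.

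End joining had one large difference. Prkdc encodes the catalytic subunit of DNA-PK, the kinase that holds broken ends together, and is of the same kinase family as ATM and ATR. It read 6.87, 6.73 and 6.73 in Ly6C- F4/80high cells, against 5.97, 5.83 and 5.73 in Ly6C+ F4/80low cells. All arrays were above the background, and the difference was 0.93 (SE 0.09, limma adjusted p = 3.53e-05), between 0.90 and 1.00 in each mouse. Lig4, the ligase of this route, averaged 6.24 ± 0.15 in Ly6C- F4/80high cells and 5.82 ± 0.12 in Ly6C+ F4/80low cells (SD, n = 3 each). Its difference was 0.41 (SE 0.10, limma adjusted p = 0.00951), and the call was lost without mouse 1 (limma adjusted p = 0.056). The Ku subunits, which bind the ends and recruit DNA-PK, were not called. Xrcc6, which encodes Ku70, missed the threshold at 0.28 (SE 0.10, limma adjusted p = 0.0509). It passed without the Ly6C- F4/80high sample of mouse 2 (0.0197) or the Ly6C+ F4/80low array of mouse 1 (0.0402). Xrcc6 also passed after quantile, cyclic loess and median scaling (limma adjusted p = 0.0231, 0.0235 and 0.0225) and with a trended robust prior (0.0497). Xrcc5, which encodes Ku80, was under the background on all arrays and differed by 0.10 (SE 0.07).

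Of 6 base excision and single-strand break repair genes 2 were called higher, with a median of 0.14. Parp1, the polymerase that marks broken strands with ADP-ribose, read 8.30, 8.49 and 8.35 in Ly6C- F4/80high cells, against 7.84, 7.89 and 7.59 in Ly6C+ F4/80low cells. The difference was 0.60 (SE 0.10, limma adjusted p = 0.00112). Xrcc1, the scaffold that PARP1 recruits, differed by 0.24 (SE 0.08, limma adjusted p = 0.042), the weakest of the 19 calls. That call was lost with the mouse as a block (limma adjusted p = 0.067) and without any 1 of the 6 arrays (limma adjusted p from 0.0526 to 0.115). Quantile and cyclic loess normalization also lost it (limma adjusted p = 0.0862 and 0.067). Ogg1, the glycosylase that removes oxidised guanine, averaged 7.23 ± 0.18 in Ly6C- F4/80high cells and 6.93 ± 0.13 in Ly6C+ F4/80low cells (SD, n = 3 each). It was not called (difference 0.30, SE 0.11, limma adjusted p = 0.0574), but was without the Ly6C- F4/80high sample of mouse 3 (0.029). The uracil glycosylase gene Ung, the endonuclease gene Apex1 and the ligase gene Lig3 differed by 0.04 (SE 0.08), 0.00 (SE 0.09) and 0.04 (SE 0.07), and in each the arrays of the subsets overlapped.

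None of the 3 nucleotide excision genes was called, nor were the 2 mismatch genes. Ercc1, a subunit of the nuclease that cuts out the damaged strand, differed by 0.27 (SE 0.09, limma adjusted p = 0.051). It was called with the mouse as a block (limma adjusted p = 0.0408) and without the Ly6C- F4/80high sample of mouse 2 (0.0209). The damage sensors Xpc and Ddb2 differed by 0.14 (SE 0.08) and 0.04 (SE 0.09). Among the mismatch genes Pms2, of the complex that cuts the wrong strand, differed by 0.18 (SE 0.08) and Msh6, of the mismatch sensor, by -0.06 (SE 0.08). By an unadjusted limma p under 0.05, 25 of all 45 genes passed. The share of all genes that pass this looser threshold was not counted, so nothing is read from that number.

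Mdm2, the ubiquitin ligase that degrades p53 and is itself a p53 target, read 10.19, 10.26 and 10.29 in Ly6C- F4/80high cells, against 10.28, 10.48 and 10.43 in Ly6C+ F4/80low cells. The subsets overlapped, and the difference was -0.15 (SE 0.08, limma adjusted p = 0.184). A list of p53 targets had 27 measured genes, of which 7 were higher and 7 lower, 25.9% each way, against 19.5% and 14.3% of all genes, with a median of -0.06. Without mouse 3 the number of higher targets was 4. Higher targets included the stress protein gene Sesn1 at 0.97 (SE 0.15), the RNA-binding protein gene Zmat3 at 0.89 (SE 0.10) and Phlda3, an inhibitor of AKT, at 0.71 (SE 0.15). Lower ones included the antiproliferative gene Btg2 at -1.55 (SE 0.08), the death receptor gene Fas at -0.84 (SE 0.09) and Pmaip1, which encodes the BH3 protein NOXA, at -0.82 (SE 0.08). After quantile or cyclic loess normalization 5 targets were higher and 9 lower, and with a common median 8 were higher and 7 lower. Many of them also answer to other signals.

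Repair and checkpoint genes outside the 45 were also called higher more often than lower. Among 107 such genes 51 passed as higher and 4 as lower, 47.7% and 3.74%, with a median of 0.23. The higher count was 33 without mouse 1 and 29 without mouse 3. Checkpoint and break signalling genes were higher in 10 of 20 cases and lower in 1. They were led by Wee1, the kinase that holds back mitotic entry, at 1.49 (SE 0.09, limma adjusted p = 2.83e-06). Tipin, the partner of TIMELESS, and Etaa1, an activator of ATR, had every Ly6C+ F4/80low array under the background. Tipin was at least 1.45-fold higher and Etaa1 at least 1.06-fold higher. Ppm1d, a phosphatase that ends the checkpoint and also stands on the p53 target list, was lower by -0.42 (SE 0.08).

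Further recombination genes were higher in 11 of 22 cases and lower in 2. The single-strand binding protein gene Rpa1 and the helicase gene Recql were higher by 0.76 (SE 0.10) and 0.61 (SE 0.08), and Fignl1, an ATPase gene of this route, was at least 1.10-fold higher. Dna2, a nuclease of resection, and Rmi2, of the BLM complex, were lower by -0.55 (SE 0.08) and -0.38 (SE 0.07). The higher count was 7 without the Ly6C- F4/80high sample of mouse 1, and 6 without mouse 1 or mouse 3 altogether. Of 9 further Fanconi genes 3 were higher, namely Faap24 at 0.54 (SE 0.08), Fance at 0.44 (SE 0.10) and Wdr48 at 0.32 (SE 0.08). The call of Wdr48, a cofactor of the enzyme that removes ubiquitin from FANCD2, was lost without the Ly6C- F4/80high sample of mouse 1 (limma adjusted p = 0.0588) or the Ly6C+ F4/80low array of mouse 3 (0.0576). Without mouse 1 this count was 1, and Fance was no longer called (limma adjusted p = 0.0594).

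Of 12 translesion and direct reversal genes 8 were higher and 0 lower, among them the ubiquitin ligase gene Rad18 at 0.70 (SE 0.08) and the polymerase genes Polk at 0.62 (SE 0.13) and Polh at 0.50 (SE 0.11). Without mouse 1 or mouse 3 the count was 4, and the calls of Polh and Polk were lost without mouse 1 (limma adjusted p = 0.0557) and mouse 3 (0.055) in turn. Nucleotide excision genes outside the 45 were higher in 10 of 18 cases, led by Ccnh, a cyclin of the TFIIH complex, at 0.83 (SE 0.08), the scaffold gene Xpa at 0.60 (SE 0.07) and Ddb1 at 0.60 (SE 0.08). This count was 6 without the Ly6C- F4/80high sample of mouse 1, 5 without that of mouse 3, and 5, 6 and 3 without mice 1, 2 and 3 in turn. Base excision genes were higher in 6 of 17 cases and lower in 1, with the replicative ligase gene Lig1 at 1.11 (SE 0.11), Tdp1, which frees trapped topoisomerase, at 0.82 (SE 0.09) and the end-processing gene Aplf at least 1.25-fold higher. Polb, the gap-filling polymerase, was lower by -0.31 (SE 0.10, limma adjusted p = 0.0298), a call lost without any mouse and without any 1 of 4 arrays, those of mice 2 and 3 in Ly6C- F4/80high cells and of mice 1 and 2 in Ly6C+ F4/80low cells (limma adjusted p from 0.0689 to 0.0995 for the arrays). The higher count was 3 without mouse 3. End joining added Nhej1 at 0.54 (SE 0.09) and Xrcc4 at 0.43 (SE 0.07), 2 of 6 genes, and mismatch repair added Mlh3, at least 1.60-fold higher, 1 of 3 genes, and 2 of 3 without the Ly6C+ F4/80low sample of mouse 1.

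**Figure D3:**
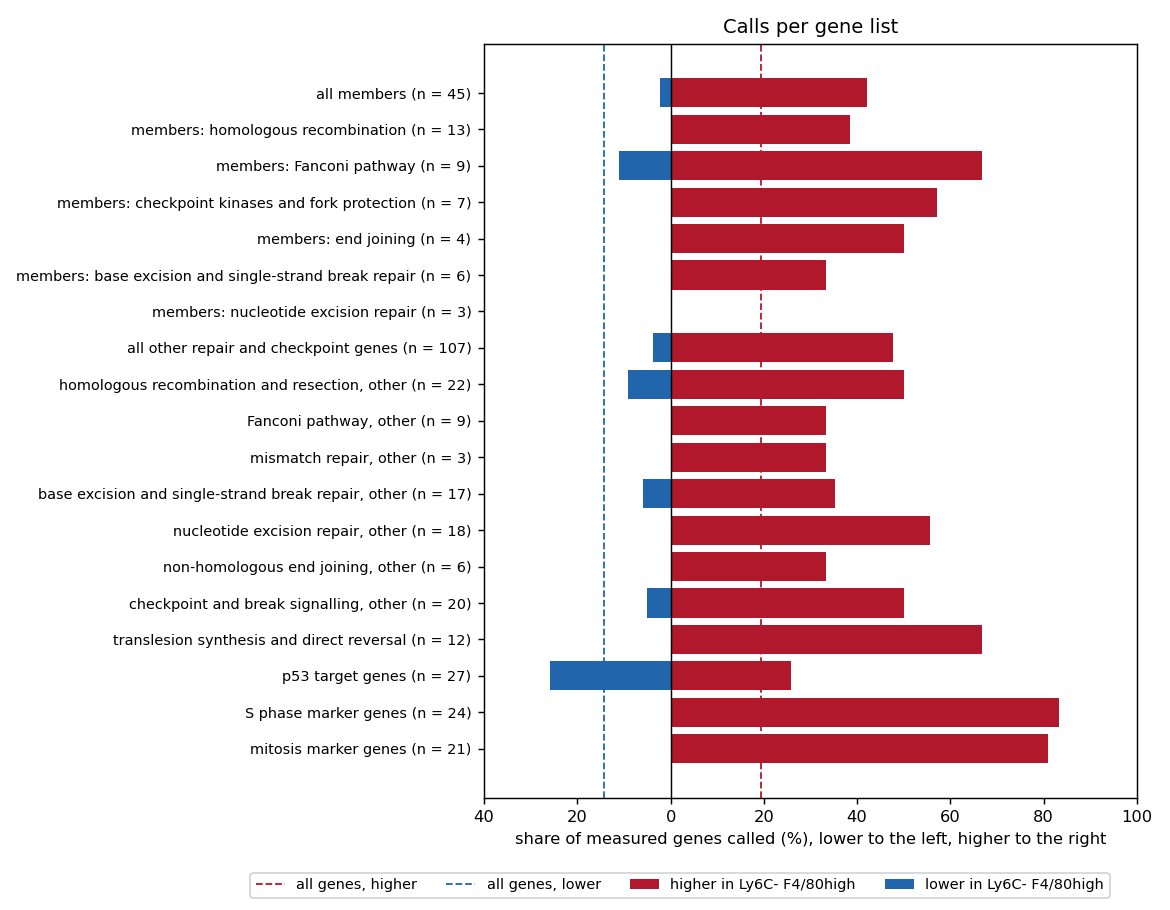
Share of the measured genes of each list called higher (red, to the right) or lower (blue, to the left) in Ly6C- F4/80high cells, in percent, with dashed lines at the shares of all genes, 19.5% and 14.3%. The 45 genes reach 42.2% higher, the S phase and mitosis markers 83.3% and 81.0%, and the p53 targets 25.9% in each direction. Quantile or cyclic loess scaling changed the p53 targets to 5 higher and 9 lower genes, and a common median to 8 higher and 7 lower.

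Markers of dividing cells moved with the repair genes and by more. Of 24 S phase genes 20 were higher and 0 lower, with a median difference of 0.92, and of 21 mitosis genes 17 were higher and 0 lower, with a median of 0.76. The mean level of the S phase list lay between 7.10 and 7.17 on the Ly6C- F4/80high arrays and between 6.32 and 6.35 on the Ly6C+ F4/80low arrays. The mitosis list had 6.06 to 6.08 on Ly6C- F4/80high and 5.31 to 5.34 on Ly6C+ F4/80low arrays. In this list 12 of 21 genes were under the background on every Ly6C+ F4/80low array. Of these 12, Kif20a, Cenpe, Cenpf and Ttk, all called higher, were under it on all arrays. The helicase subunit gene Mcm6 differed by 1.83 (SE 0.10) and Mki67, the gene of the proliferation antigen Ki-67, by 1.04 (SE 0.08). Pcna, the sliding clamp of replication and repair, differed by 0.04 (SE 0.12, limma adjusted p = 0.81). The part of the cycle genes in the repair gene differences was not tested.

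Some genes whose proteins work as partners differed unequally. The 10 pairs described next were chosen after their values were seen, so the gaps between them are given as a description with no test. The Atr difference exceeded the Atrip difference by 0.70. In the same way Rad50 exceeded Nbn by 0.88 and Mre11a, the nuclease of that complex, by 0.52, while Mre11a itself differed by 0.43 (SE 0.09). Prkdc exceeded Xrcc6 by 0.66 and Xrcc1 exceeded Lig3 by 0.20. The ligase pair went together, with Lig4 minus Xrcc4 at -0.01. In 5 of these 6 pairs the log2 ratio of the genes kept the subsets apart on every array, which the choice of pairs favoured. The share over other pairs of genes was not counted. No gap is given for the other 4 pairs, because Brca1, Brca2 and Tipin lay under the background in Ly6C+ F4/80low cells, and Palb2 and Xrcc5 on all arrays. Different probe sets need not share a scale, and the part of this in the gaps was not tested.

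**Figure D4:**
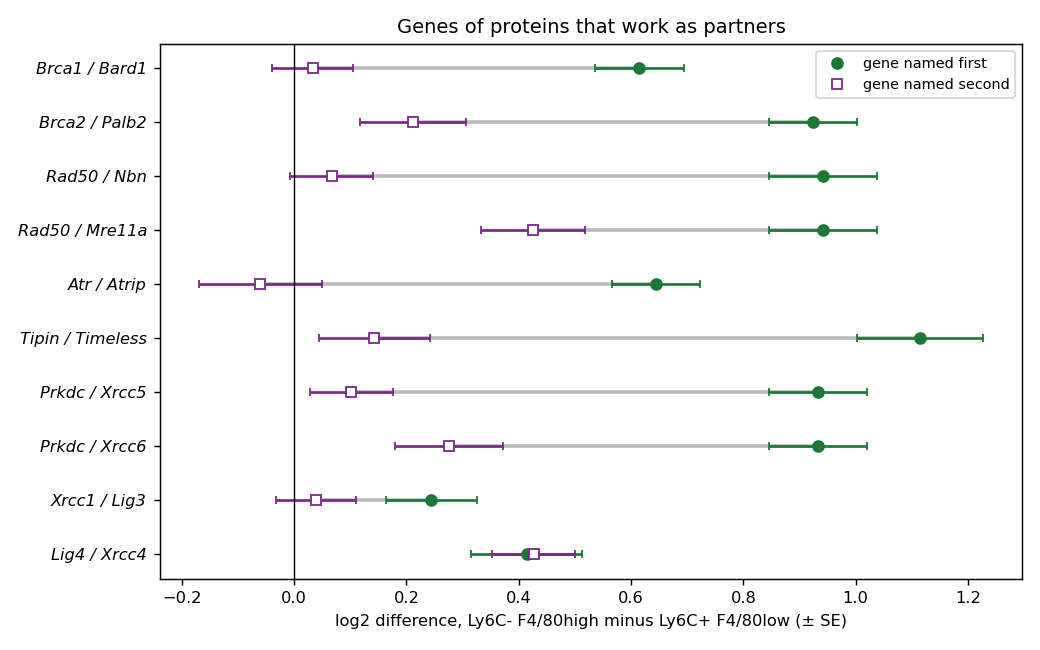
Log2 difference between the subsets (x axis, ± SE from limma, 3 arrays per subset) for 10 pairs of genes whose proteins work together, with the gene named first as a filled circle and its partner as an open square. The pairs, and the gene named first in each, were chosen with the values known, so the side of the circle is no result. In Lig4 and Xrcc4 the symbols nearly coincide. The distances for Brca1, Brca2, Tipin and Xrcc5 with their partners are not measured gaps, because a gene of each pair was under the background.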

How the data were processed

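RNA of 6 sorted samples was labelled with Affymetrix kits and hybridised to 1 array each. The authors deposited log2 expression values made with RMA, per the submitters' processing notes. The sources used here do not give the software, settings or build, and the scale was inferred from values between 1.20 and 13.5. At low signal RMA shrinks differences, which are then too small. Of 35556 probe sets 21789 had 1 gene symbol in the annotation, 1621 several and 12146 none, and only the first were used. The probe set with the highest mean stood for each of 19938 genes.

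The test was limma's (version 3.58.1, R 4.3.3; lmFit, then eBayes, two-sided, Benjamini-Hochberg over all genes). Arrays have no read depth, and their number limits the precision. Where all arrays of a subset were under the background, a fold is given as "at least", against the background. The genes and lists were chosen with earlier results of these data known. Named are all 45 genes, up to 3 called genes per direction of each related list, the sorting genes and 4 cycle markers, and Mre11a was added after its value was seen. The mouse pairs the arrays by the labels. After each subset's mean was removed, the 2 arrays of a mouse had correlations of 0.03, -0.08 and 0.09 over genes, and the fit with the mouse as a block was an alternative. Others were quantile, cyclic loess and median scaling, a filter on level, the mean of probe sets, a trended robust prior, and leaving out arrays or mice. The fit was tested on simulated data with 200 of 19938 genes changed. It recovered 56.7% of differences of 0.5 and 95.5% of those of 1, with 6 false calls among 174. Far fewer genes were changed there than the 6748 called in the data, so these rates need not hold here. Promoter sequences are from RefSeq (GRCm38.p6). Coordinates are those of that assembly and not of the arrays.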

Additional observations from a re-analysis of the deposited data

How the results depend on the processing

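Of the 20 calls among the 45 genes 13 held under each of the 16 alternatives that tested them, namely Brca1, Brca2, Rad54l, Rad50, Fancg, Fancm, Brip1, Atm, Atr, Chek1, Chek2, Prkdc and Parp1, and no called difference changed sign. With the lowest 50% of genes left out, 9 of the 19 higher genes were not tested and the count of higher genes was 12. It was 23 after quantile normalization, 25 after cyclic loess and 25 with a common median, which moved the median difference to 0.32. Quantile normalization gained Palb2, Exo1, Fanci, Clspn and Xrcc6, cyclic loess gained these with Rad51ap1 and Xrcc5, and both lost Xrcc1. The common median gained Palb2, Exo1, Pms2, Xrcc6, Ogg1 and Ercc1 and lost none. Leaving out arrays or mice gave 14 to 20 higher and 0 to 1 lower genes, a median of 0.20 to 0.27, 29 to 46 higher and 3 to 4 lower genes among the other 107, and 3998 to 6887 calls over all genes, against 6748. The common median also changed the split of all calls, to 4789 higher and 1737 lower, against 3887 and 2861. With the mouse as a replicate block the 45 genes again gave 19 higher and 1 lower, against 18.3% and 12.6% of all genes, with Fanca and Xrcc1 lost and Exo1 and Ercc1 gained, and it changed no other call among them. Of the 8 called genes under the background in Ly6C+ F4/80low cells 6 have only a lower bound on the fold, and Brca1 and Fancd2 have none.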
